A study of Mus musculus with 54 samples.

Results

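The genes described here are those that encode the proteasome, the complex that degrades ubiquitin-tagged proteins, in the suprachiasmatic nucleus (SCN), the hypothalamic pacemaker of the mouse. They were found by symbol, as the rows of the deposited count table named *Psma*, *Psmb*, *Psmc*, *Psmd*, *Psme*, *Psmf* or *Psmg* with a number. Of 48 such rows, after 3 pseudogene rows had been set aside, 47 had at least 1 read in more than 6 of the 18 replicates and were kept, among 18941 genes tested and 30031 rows in all. The row that was not kept is *Psmb11*, which encodes a subunit of the thymus. *Psmc3ip* matches the rule but encodes a recombination factor and no proteasome subunit. The SCN was cut by laser capture from male C3H/HeH mice of 10 to 12 weeks, kept in a light/dark cycle, at ZT2, ZT6, ZT10, ZT14, ZT18 and ZT22 (hours after lights on). Each timepoint has 3 replicates, A, B and C, and each replicate is 1 pool of tissue from 5 mice. No genotype, drug or light pulse differs between the groups. A tissue pool mixes cell types, so fewer cells of a type and less RNA per cell cannot be told apart in these values.

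The 26S proteasome joins a barrel, the 20S core particle, to a cap, the 19S regulatory particle. The core is built of rings of alpha and beta subunits, and *Psmb5*, *Psmb6* and *Psmb7* encode its cutting subunits, which *Psmb8*, *Psmb9* and *Psmb10* can replace to give the immunoproteasome. The 19S cap recognises ubiquitin chains, removes them and threads the substrate into the core by a ring of ATPases encoded by *Psmc1* to *Psmc6*. Subunits of 1 particle are assembled in fixed proportions, with the help of dedicated chaperones, and clock proteins such as the period and cryptochrome proteins are among the known substrates of the complex.

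Values are reads of a gene per 1000000 counted reads (CPM), scaled by edgeR's TMM factors, from libraries of 15412981 to 35820945 counted reads. The time test asks whether the means of the 6 timepoints are equal, and all adjusted p-values come from 1 edgeR fit to all genes and were adjusted over them (Benjamini–Hochberg, threshold 0.05). By overall expression the pools fall into 3 clusters, the first made up of ZT2 and ZT22, the next of ZT6 and ZT10 and the last of ZT14 and ZT18. The paper describes its own plot of principal components as separating the data by timepoint and by sequencing batch. From the timing of clock genes it takes batch effects to be minimal, and it reports high concordance with quantitative PCR of the SCN samples. Over the 500 most variable genes the median distance between replicates was 7.97 in the first 2 principal components within a timepoint, 7.52 between timepoints of a cluster and 58.4 between clusters. A difference between clusters can therefore not be told apart from sequencing batch, and ZT10 against ZT6, ZT18 against ZT14 and ZT2 against ZT22 are the comparisons inside a cluster. Of the defining markers of SCN neurons, all 9 were detected (*Avp*, *Vip*, *Grp*, *Six6*, *Lhx1*, *Rorb*, *Prok2*, *Nms* and *Rgs16*). Their summed level lay between 1577 and 2581 CPM at ZT14 and ZT18 and between 2493 and 5581 CPM at the other timepoints. The paper reports *Rorb* and *Prok2* among its cycling genes, so this sum can change without a change in cell number.

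Of the 47 genes, 36 changed with time, where 44.0% of all tested genes did. They were 13 of the 14 core genes, 13 of the 16 genes of the 19S particle and 10 of the other 17. The background depends on read depth. Among genes with 10 or more reads in each pool, 37 proteasome genes changed and 68% of all did, a smaller gap. The shares of all tested genes given below for cycling, for the order of pools and for calls after ZT6 were not matched for read depth. They include genes with few reads, so a gap to them may be overstated. In the 36 genes a median of 94.7% of the variance among timepoint means lay between the 3 clusters (90.3% in all genes that changed). Leaving out the timepoints of 1 cluster gave different counts in the core and in the 19S genes. Without ZT14 and ZT18 the time test called 2 of the 14 core genes, *Psmb4* and *Psmb5*, and 14 of the 16 genes of the 19S particle (background 33.7%). Without ZT2 and ZT22 it called 11 of the core genes and 2 of the 19S genes, *Psmd2* and *Psmd3* (background 20.1%). Without ZT6 and ZT10 it called 11 and 12 (background 28.6%). These 3 tests were chosen after the values had been seen.

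**Figure D1:**
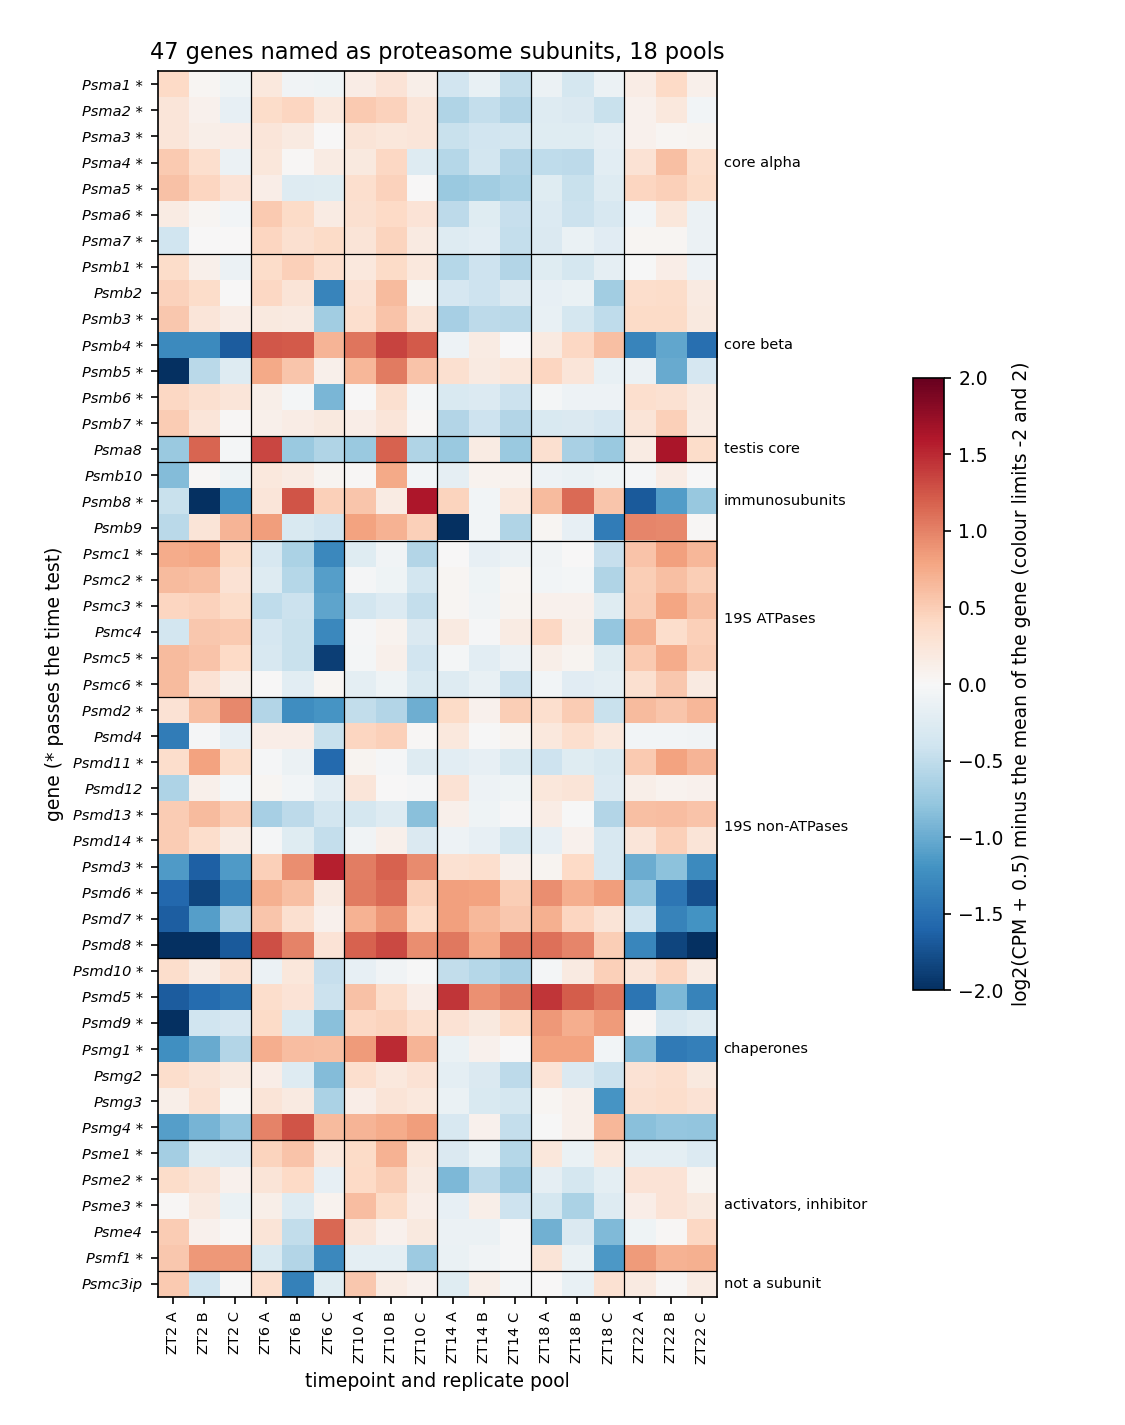
Level of the 47 genes in the 18 pools, as log2(CPM + 0.5) minus the mean of each gene over the pools, from blue (lower) to red (higher), with genes in rows by class and pools in columns by timepoint; an asterisk marks an adjusted p of the time test under 0.05. All core genes but Psmb4 and Psmb5 are pale blue at ZT14, the 19S ATPases are pale red at ZT2 and ZT22 (all but pool A of ZT2 for Psmc4), and Psmb4, Psmd3, Psmd6, Psmd7, Psmd8, Psmd5, Psmg1 and Psmg4 are blue at ZT2 and ZT22. Colours are limited at 2 log2 units on either side of 0.

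Levels between genes were compared per kilobase of exon (RPKM, over the union of the annotated exons). The median level was 116 RPKM over the 14 core genes and 63.4 RPKM over the 16 genes of the 19S particle, where the median of all tested genes was 2.58 RPKM. *Psmc5*, an ATPase gene, had the highest mean, 378 RPKM, with pools from 96.0 to 594 RPKM. The core genes *Psma6*, *Psmb6* and *Psmb2* followed at 258, 252 and 246 RPKM, and the ranges of these 4 genes over the pools overlap. The order depends on the length used: over the longest transcript alone *Psmb6* stood at 489, *Psmb1* at 386 and *Psmc5* at 378 RPKM. The core genes ran from 58.9 RPKM (*Psma3*) to 258 RPKM, a narrower span than the 19S genes, which ran from 7.18 RPKM (*Psmd3*) to 378 RPKM. The assembly chaperones had a median of 17.3 RPKM. *Psmb8* and *Psmb9*, of the immunoproteasome, stood at 1.11 and 1.28 RPKM, while *Psmb10*, the third of that set, stood at 48.1 RPKM. *Psma8*, the alpha subunit of the testis, stood at 0.198 RPKM with at least 1 pool at 0.

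**Figure D2:**
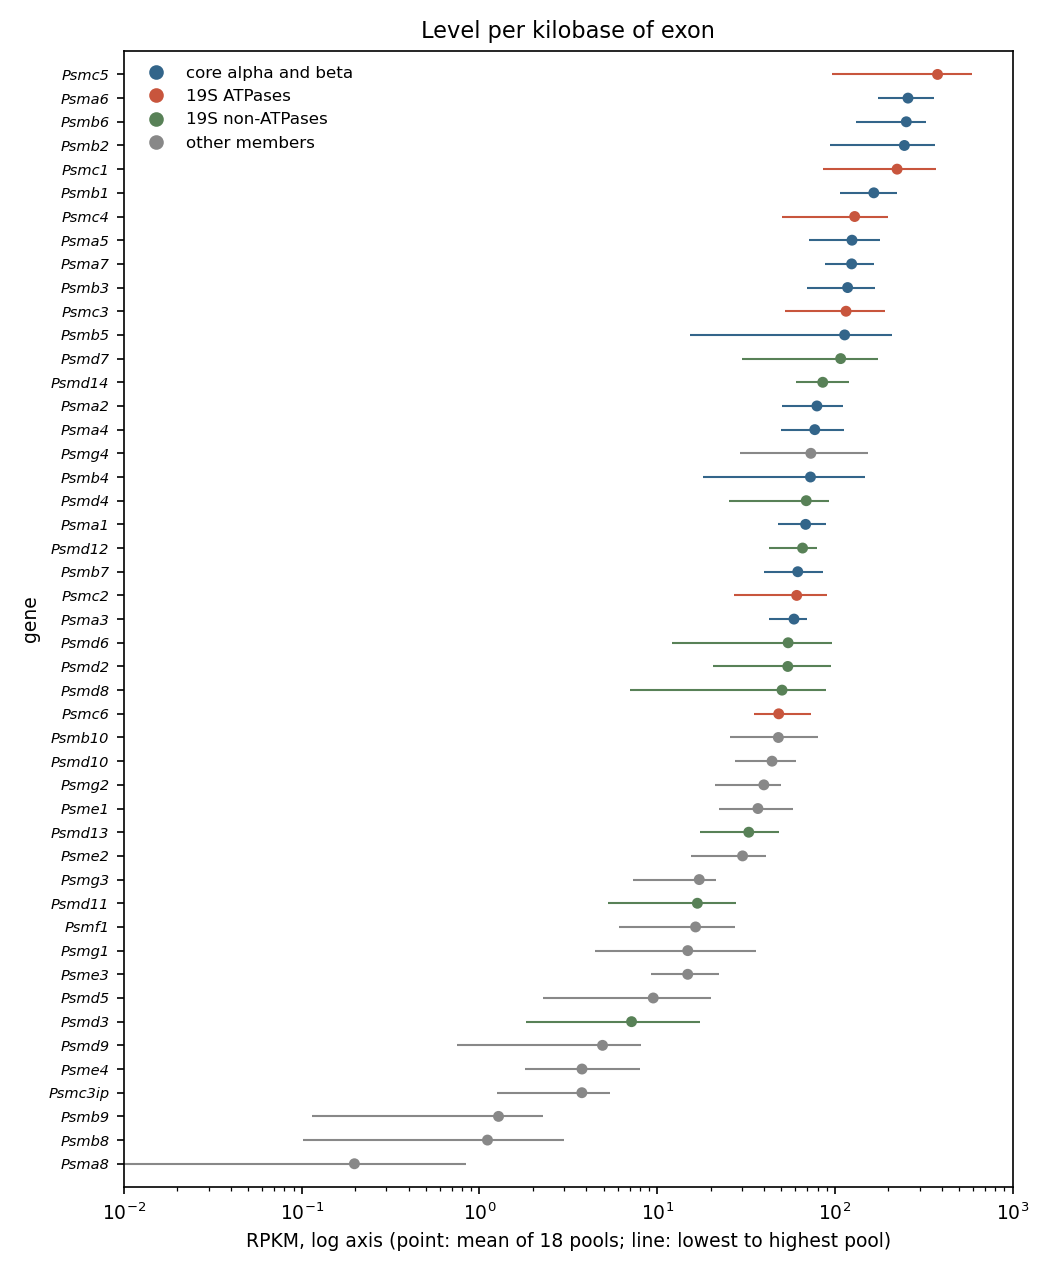
Mean level of each of the 47 genes in RPKM on a log axis (points), with a line from the lowest to the highest of the 18 pools; the line of Psma8 starts at 0 and is cut at the left edge. Core genes lie between 58.9 and 258 RPKM, and Psmb8, Psmb9 and Psma8 lie at the bottom.

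The core genes were lowest in the early night. The mean was lowest at ZT14 in 12 of the 14 genes, all except *Psmb4* and *Psmb5*. From ZT10 to ZT14, 18 of the 47 genes were called (16.8% of all tested genes), and 11 of them were core genes. All 11 fell (7.52% of all tested genes fell), and in all 14 the 3 pools of ZT14 lay below the 3 pools of ZT10 (18.5% of all genes). In the reads recovered from the second deposited table, described below, 13 core genes kept this order, all except *Psmb5*, whose log2 difference turned from -0.53 to 0.36 (neither called). The median log2 difference over the core was -0.68, and over all tested genes it was 0.12. All 7 alpha genes were among those that fell. Leaving out single replicates gave 9 to 13 core genes in place of 11.

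*Psma5* encodes an alpha subunit. *Psma5* read, in CPM for pools A, B and C, 237, 213 and 190.4 at ZT2, 174, 132 and 133 at ZT6 and 199, 219 and 159 at ZT10. It read 94.4, 97.2 and 102 at ZT14, 134, 116 and 132 at ZT18 and 212, 219.9 and 205 at ZT22. The ZT14 pools were the lowest of the 18, and its log2 difference from ZT10 was -0.98 (SE 0.16, adjusted p = 0.000401). It fell as well from ZT2 to ZT6, with a log2 difference of -0.54 (SE 0.16, adjusted p = 0.0118), and rose from ZT18 to ZT22, with one of 0.74 (SE 0.16, adjusted p = 0.00281). *Psma2* and *Psma6*, which encode other subunits of the same ring, had means of 377 ± 37.5 and 391 ± 15.8 CPM at ZT10 (SD, n = 3) and 193 ± 9.63 and 235 ± 24.9 CPM at ZT14. *Psma1* had the weakest time test of the alpha genes (adjusted p = 0.0395), which passed in 7 of the 18 fits with a single replicate removed.

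*Psmb1* encodes a beta subunit that does not cut and had the most reads of the core genes. *Psmb1* read, in CPM for pools A, B and C, 959, 796 and 683 at ZT2, 957, 1034 and 935 at ZT6 and 861, 963 and 863 at ZT10. It read 501, 558 and 493 at ZT14, 626, 579 and 652 at ZT18 and 738, 809.9 and 693 at ZT22. All 6 pools of ZT14 and ZT18 lay below the other 12. The recovered reads did not keep this order, with ZT10 pool A at 580 CPM and ZT18 pools A and C at 592 and 617 CPM. Its log2 difference between ZT14 and ZT10 was -0.79 (SE 0.14, adjusted p = 0.00107) and was -0.33 (adjusted p = 0.122) in the recovered reads. *Psmb7* encodes the subunit with trypsin-like activity and shares 11.8% of its exon bases with an overlapping gene, and its log2 difference between ZT14 and ZT10 was -0.67 (SE 0.14, adjusted p = 0.00377). For *Psmb6*, the subunit with caspase-like activity, the mean was 579 ± 33.3 CPM at ZT2, 399 ± 136 at ZT6 and 365 ± 18.7 at ZT14. Its ZT6 pools read 501, 451 and 245 CPM, so that pool C lowered the mean. Its time test, at adjusted p = 0.0431, held in 6 of the 18 fits without 1 replicate. *Psmb2* did not pass (adjusted p = 0.176), but did with DESeq2 (0.0433) and with no filter on low counts (0.0420), and its ZT6 pools read 375, 337 and 112 CPM, so that pool C stood far below the other 2.

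In 7 of the 47 genes every pool of ZT14 and ZT18 lay below every other pool, where 1.10% of all tested genes did. They were *Psma1*, *Psma2*, *Psma3*, *Psma6*, *Psmb1* and *Psmb7* of the core, and *Psme2*. In the recovered reads all of these except *Psmb1* kept this order. The summed level of the SCN neuron markers was lowest at the same timepoints, and that of 6 oligodendrocyte markers, none of them at 0, lay between 4715 and 6070 CPM there against 1266 to 4408 CPM elsewhere. All 6 of the latter and 8 of the 9 SCN markers changed with time. Their part in the fall of the core genes was not tested. Inside the cluster, 8 of the 14 core genes had all ZT18 pools above all ZT14 pools (10.2% of all genes) and none passed the test.

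*Psmb4* and *Psmb5* departed from the rest of the core. *Psmb4* encodes a beta subunit needed to join the core's rings. *Psmb4* read, in CPM for pools A, B and C, 46.1, 46.0 and 35.3 at ZT2, 267, 263 and 181 at ZT6 and 237, 289 and 265 at ZT10. It read 105, 126 and 113 at ZT14, 127, 150.3 and 171 at ZT18 and 44.8, 54.7 and 39.0 at ZT22. The highest of its ZT2 and ZT22 pools, at 54.7 CPM, was below the lowest of the other 12, at 105 CPM. The log2 difference was 2.48 (SE 0.20, adjusted p = 5.88e-08) from ZT2 to ZT6, -1.20 (SE 0.19, adjusted p = 0.000337) from ZT10 to ZT14 and -1.69 (SE 0.19, adjusted p = 6.59e-06) from ZT18 to ZT22. *Psmb5* encodes the subunit with chymotrypsin-like activity. *Psmb5* read, in CPM for pools A, B and C, 13.8, 62.4 and 76.0 at ZT2, 154, 133 and 97.2 at ZT6 and 144, 188 and 134 at ZT10. It read 113, 103 and 106 at ZT14, 122, 107 and 82.0 at ZT18 and 83.3, 45.1 and 71.5 at ZT22. The ZT2 pools were below the ZT6 pools, with a log2 difference of 1.33 (SE 0.40, adjusted p = 0.0160), and pool A of ZT2 was far below pools B and C. Its exons share 12.1% of their bases with an overlapping gene. In the recovered reads that difference was 0.62 (adjusted p = 0.235), and the time test, at adjusted p = 0.0254 here, stood at 0.188.

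**Figure D3:**
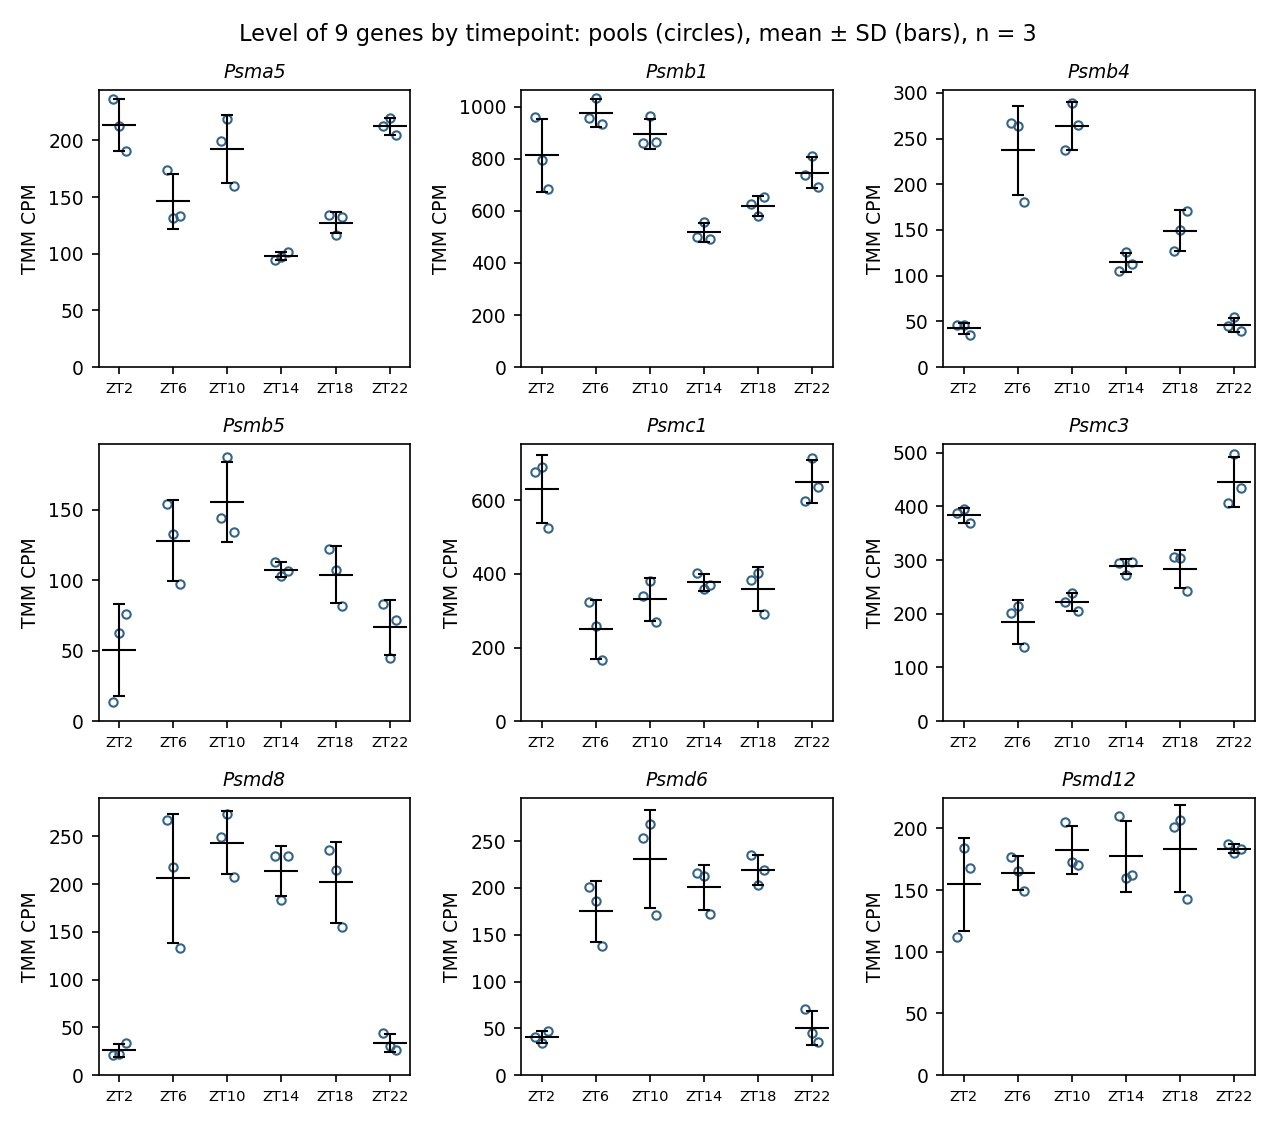
Level of 9 genes in TMM-scaled CPM (linear axes from 0) at the 6 timepoints, with circles for the 3 pools and bars for mean ± SD. Psma5 and Psmb1 are lowest at ZT14, Psmb4, Psmb5, Psmd8 and Psmd6 are lowest at ZT2 or ZT22, Psmc1 and Psmc3 are highest at ZT2 and ZT22, and the pools of Psmd12 overlap between neighbouring timepoints.

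Genes of the 19S particle were called mainly between ZT2 and ZT6 and between ZT18 and ZT22, in both directions. From ZT2 to ZT6, 24 of the 47 genes were called, 13 of them in the 19S particle. The share of all tested genes was 33.8%, and it was 49.9% among those with 10 or more reads in each pool. Of the 16 genes of the particle 4 rose and 9 fell, where 17.5% of all tested genes rose and 16.3% fell. From ZT18 to ZT22, 21 of the 47 were called (18.1%), and 6 genes of the particle rose and 4 fell, where 6.27% and 11.9% of all tested genes did. Between ZT10 and ZT14 *Psmd2* rose (9.31% of all tested genes rose), *Psmd3* fell and the other 14 were not called, with a median log2 difference of -0.04 over the particle. Without ZT22 replicate B the ZT18 to ZT22 calls dropped from 10 to 6, and those over all 47 genes from 21 to 13. The *Psmd3* call held in 12 of the 18 fits with 1 pool removed. Without ZT10 replicate C the 2 calls between ZT10 and ZT14 were lost.

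The ATPase genes were high at ZT2 and ZT22. From ZT2 to ZT6, 5 of the 6 fell, with a median log2 difference of -1.09 (all tested genes, -0.03). From ZT18 to ZT22, 4 rose, and without ZT22 replicate B 1 did. *Psmc1* encodes an ATPase of the base. *Psmc1* read, in CPM for pools A, B and C, 678, 690.4 and 524 at ZT2, 324, 259 and 165 at ZT6 and 341, 382 and 269 at ZT10. It read 403, 358 and 371 at ZT14, 384, 403 and 292 at ZT18 and 599, 715 and 637 at ZT22. All 6 pools of ZT2 and ZT22 were above the other 12, and the log2 differences were -1.34 (SE 0.22, adjusted p = 0.000122) from ZT2 to ZT6 and 0.86 (SE 0.21, adjusted p = 0.00936) from ZT18 to ZT22. *Psmc3* had the smallest time-test p of the 6 (adjusted p = 4.76e-05). *Psmc3* read, in CPM for pools A, B and C, 387, 396 and 369 at ZT2, 202, 214 and 137 at ZT6 and 222, 238 and 206 at ZT10. It read 295, 273 and 297 at ZT14, 305, 304 and 242 at ZT18 and 407, 497 and 434 at ZT22. It too was highest at ZT2 and ZT22, and its 6 pools of ZT6 and ZT10 were below all others, an order found in 2 of the 47 genes (3.74% of all tested genes), the other being *Psmd2*. *Psmc2* had means of 419.7 ± 52.9 CPM at ZT2 and 192 ± 53.9 at ZT6 (log2 difference -1.13, SE 0.20, adjusted p = 0.000277). *Psmc4* narrowly missed in the time test (adjusted p = 0.0510) and passed with DESeq2 (0.00519), with its size factors (0.0279), with a filter of 10 counts in every pool (0.0285) and with no filter (0.00812), though not in the recovered reads. The summed level of 6 astrocyte markers, all of which changed with time and none of which was at 0, lay between 3557 and 5234 CPM at ZT2 and ZT22 and between 1640.0 and 3590 CPM at the other timepoints, and its part in the course of the ATPase genes was not tested. These 2 astrocyte ranges overlap slightly. Other marker sums also overlapped between ZT2 and ZT22 and the rest. They were 185 to 241 against 87.9 to 223 CPM for microglia and 91.4 to 193 against 84.8 to 130 CPM for endothelial cells. Markers of telencephalic excitatory neurons summed to 39.8 to 217 against 16.3 to 195 CPM.

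Outside the ATPase ring, *Psmd14* and *Psmd2* also fell from ZT2 to ZT6. *Psmd14* encodes the deubiquitinase that cuts the ubiquitin chain off the substrate, and its mean was 302 ± 35.8 CPM at ZT2 and 201 ± 31.6 at ZT6 (log2 difference -0.58, SE 0.17, adjusted p = 0.0110). *Psmd2* encodes a scaffold of the base that docks ubiquitin receptors. *Psmd2* read, in CPM for pools A, B and C, 242, 303 and 386 at ZT2, 133, 83.2 and 87.4 at ZT6 and 141, 132 and 101 at ZT10. It read 259, 210.2 and 279 at ZT14, 252, 284 and 145 at ZT18 and 307, 291 and 315 at ZT22. It was lowest at ZT6 and ZT10, whose 6 pools were below all others, and rose by ZT14, with a log2 difference of 1.00 (SE 0.25, adjusted p = 0.00908). In 8 of the 16 genes of the 19S particle every pool of ZT2 and ZT22 was above every other pool, as was *Psmf1*, which encodes a proteasome inhibitor; among all tested genes 4.21% had this order. The 8 are *Psmc1*, *Psmc2*, *Psmc3*, *Psmc5*, *Psmc6*, *Psmd11*, *Psmd13* and *Psmd14*. *Psmf1* fell from ZT2 to ZT6 with a log2 difference of -1.44 (SE 0.29, adjusted p = 0.000801), from 164 ± 21.2 to 60.4 ± 19.5 CPM.

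The 8 lid genes taken by the symbol rule were split. *Psmd3*, *Psmd6*, *Psmd7* and *Psmd8* were lower in every ZT2 and ZT22 pool than in any other pool, while *Psmd11*, *Psmd13* and *Psmd14*, which also encode lid subunits, are among the 8 genes highest there. *Psmd8* changed most of all 47 genes, 9.39-fold between its lowest and highest timepoint mean. *Psmd8* read, in CPM for pools A, B and C, 21.4, 22.6 and 33.9 at ZT2, 267, 218 and 133 at ZT6 and 249, 274 and 208 at ZT10. It read 229, 184 and 229 at ZT14, 236, 215 and 155 at ZT18 and 44.0, 30.3 and 26.8 at ZT22. The groups do not overlap, and the log2 differences were 2.99 (SE 0.28, adjusted p = 3.77e-07) from ZT2 to ZT6 and -2.58 (SE 0.27, adjusted p = 2.88e-06) from ZT18 to ZT22. *Psmd6* went from 40.8 ± 6.82 CPM at ZT2 to 175 ± 32.7 at ZT6, and *Psmd3* from 11.7 ± 2.29 to 61.3 ± 23.5. *Psmd12*, the other lid gene, had no call at any timepoint. *Psmd12* read, in CPM for pools A, B and C, 112, 184 and 168 at ZT2, 177, 166 and 149 at ZT6 and 205, 173 and 170.0 at ZT10. It read 210.4, 160.0 and 162 at ZT14, 201, 207 and 143 at ZT18 and 187, 180.4 and 183 at ZT22. Its timepoint means spanned 1.19-fold, and the pools of neighbouring timepoints overlapped (time test, adjusted p = 0.768). Over the 47 genes, 9 had every ZT2 and ZT22 pool below all others, where 7.93% of all tested genes did. In the opposite order, 3 of the 47 (*Psma7*, *Psmb4* and *Psmd3*) had every ZT6 and ZT10 pool above all others (4.78% of all tested genes). Besides these 4 lid genes, those lowest at ZT2 and ZT22 were *Psmb4*, *Psmb8* and the chaperone genes *Psmd5*, *Psmg1* and *Psmg4*.

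The genes that rose from ZT2 to ZT6 and those that fell are set side by side by base composition, as a description. The first 300 bases of the longest transcript had a median GC content of 63.7% in the 12 genes that rose, 55.2% in the 12 that fell and 56.7% in the 23 not called. Across the 47 genes the Pearson correlation of that GC content with the log2 difference was 0.445, and over the 15185 genes at or above the level of the lowest member it was 0.180. Spearman's rho was 0.477 and 0.226. For the GC content of the whole transcript the Pearson correlations were closer to each other, at 0.281 and 0.254. For transcript length they were -0.155 and -0.215. The points share the libraries and the amplification, and the part of base composition in the differences was not tested.

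Promoter sequence is shown for the genes with the largest rise and the largest fall from ZT2 to ZT6 (2 of each, among those that passed the time test, averaged at least 10 CPM and had an entry). Promoters of 39 of the 47 genes were matched in RefSeq (GRCm38.p6). The lines give the 120 bases before the RefSeq start of each, 5′ to 3′ on the gene's strand. By the GENCODE annotation used for exon lengths, the *Psmf1* stretch lies inside the gene, which there starts at base 151744186. Those of *Psmd8* and *Psmb4* overlap the starts of their genes. Capitals mark GGGCGG (the GC box) and TTCCG (the core of sites for ETS factors) on either strand.
Psmd8 (strand minus, chr7:29180674-29180793): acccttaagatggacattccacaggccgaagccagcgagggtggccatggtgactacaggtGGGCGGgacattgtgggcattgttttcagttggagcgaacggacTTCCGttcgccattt
Psmb4 (strand minus, chr3:94886959-94887078): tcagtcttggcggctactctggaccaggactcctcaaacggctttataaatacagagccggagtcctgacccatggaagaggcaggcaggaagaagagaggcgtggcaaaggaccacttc
Psmd2 (strand plus, chr16:20651532-20651651): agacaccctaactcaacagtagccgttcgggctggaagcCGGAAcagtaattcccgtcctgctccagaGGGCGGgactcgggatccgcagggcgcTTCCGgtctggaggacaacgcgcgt
Psmf1 (strand minus, chr2:151741311-151741430): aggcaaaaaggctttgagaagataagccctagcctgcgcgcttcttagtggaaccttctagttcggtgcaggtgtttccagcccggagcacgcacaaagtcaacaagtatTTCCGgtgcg

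Windows of 250 bases before to 50 after the start were searched on both strands. TTCCG, a motif chosen after these 4 sequences had been seen, was in 31 of the 39 windows (79.5%), in 51.2% of the windows of genes that averaged at least 10 CPM and in 30.3% of all 27025 windows. GGGCGG was in 56.4% of the 39 windows and in 66.3% of the windows of genes at 10 CPM or more. CCAAT was in 35.9% and 38.8%, CACGTG, the E-box bound by the clock factors, in 10.3% and 10.7%, and TGACNNNGC, the antioxidant response element, in 15.4% and 14.5%. TTCCG was in 8 of the 10 windows of genes that rose from ZT2 to ZT6 and in 10 of the 11 windows of genes that fell, and CACGTG was in none of these 21. The printed stretch of *Psmb4* holds neither of the capitalised motifs, but its searched window has 2 matches to TTCCG. A match is a run of letters, not a bound site.

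**Figure D4:**
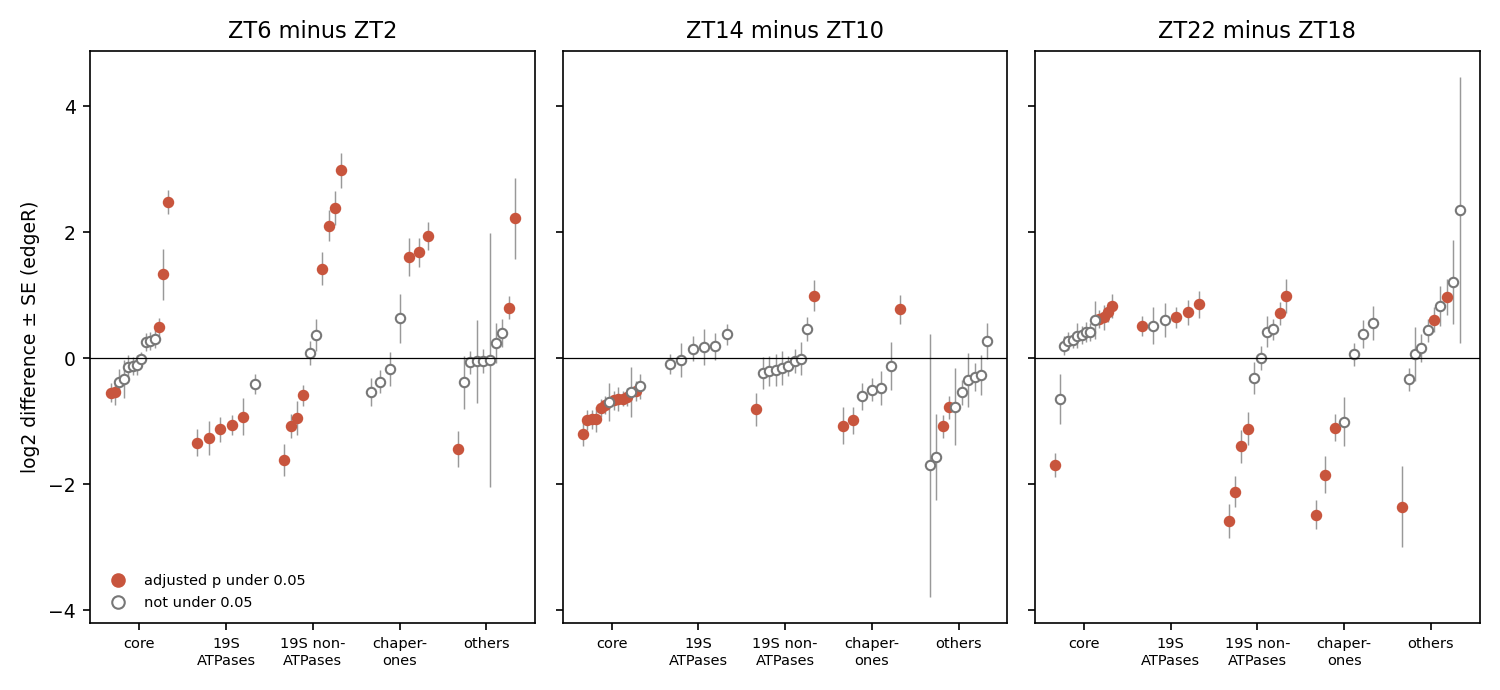
Log2 difference ± SE of each of the 47 genes between neighbouring timepoints of different clusters, by class; filled red points have an adjusted p under 0.05 (edgeR). Core genes lie below 0 in ZT14 minus ZT10, the 19S ATPases lie below 0 in ZT6 minus ZT2 and above 0 in ZT22 minus ZT18, and the 19S non-ATPases split to both sides in these 2.

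The balance of core to 19S transcripts was described per pool by the mean log2(CPM + 0.5) of the 14 core genes minus that of the 16 genes of the 19S particle, with no test. This difference was 0.71, 0.54 and 0.38 at ZT2, 0.81, 0.83 and 0.91 at ZT6 and 0.60, 0.71 and 0.79 at ZT10. It was -0.20, 0.05 and -0.07 at ZT14, 0.05, 0.01 and 0.40 at ZT18 and 0.40, 0.50 and 0.47 at ZT22. The ZT6 and ZT10 pools were all above those of ZT14, ZT18 and ZT22, and ZT18 pool C stood apart from pools A and B. The timepoint means ran from -0.07 ± 0.13 (SD, n = 3) at ZT14 to 0.85 ± 0.05 at ZT6, a span of 0.92. With summed counts of each particle in place of the mean over genes, the difference stayed highest at ZT6 (0.73) and lowest at ZT14 (-0.32), with 0.48 for ZT10. It was then 0.06 for ZT2, -0.09 for ZT18 and -0.03 for ZT22, so that its sign turned in the last 2 of these. These differences, and those in the next paragraph, are not scaled for exon length, so their sign does not tell which set has more transcript. The mean level of the core itself ran from 7.54 at ZT14 to 8.28 at ZT10 on the log2 scale, and that of the 19S genes from 7.26 at ZT6 to 7.61 at ZT14.

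The mean over the 19S genes hides opposite courses. Core minus ATPases was -0.79 ± 0.03 at ZT2 and -0.82 ± 0.04 at ZT22, and it was 0.49 ± 0.19 at ZT6. Core minus the 10 non-ATPase genes was 1.35 ± 0.26 at ZT2, 1.06 ± 0.03 at ZT6 and 0.26 ± 0.14 at ZT14. Within the 19S particle, ATPases minus non-ATPases was 2.13 ± 0.26 at ZT2 and 2.04 ± 0.15 at ZT22 and lay between 0.57 and 0.89 at the other 4 timepoints. No pool of ZT2 or ZT22 was below 1.86 and no other pool was above 0.97. *Psmd1*, the largest non-ATPase subunit, is not in the count table and is not part of these means. *Adrm1* and *Sem1* also encode 19S subunits but do not match the symbol rule, so they are left out as well. In timepoint means *Adrm1* ran from 5.75 CPM at ZT2 to 73.1 at ZT10. *Sem1* ran from 261 CPM at ZT14 to 524 at ZT6.

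**Figure D5:**
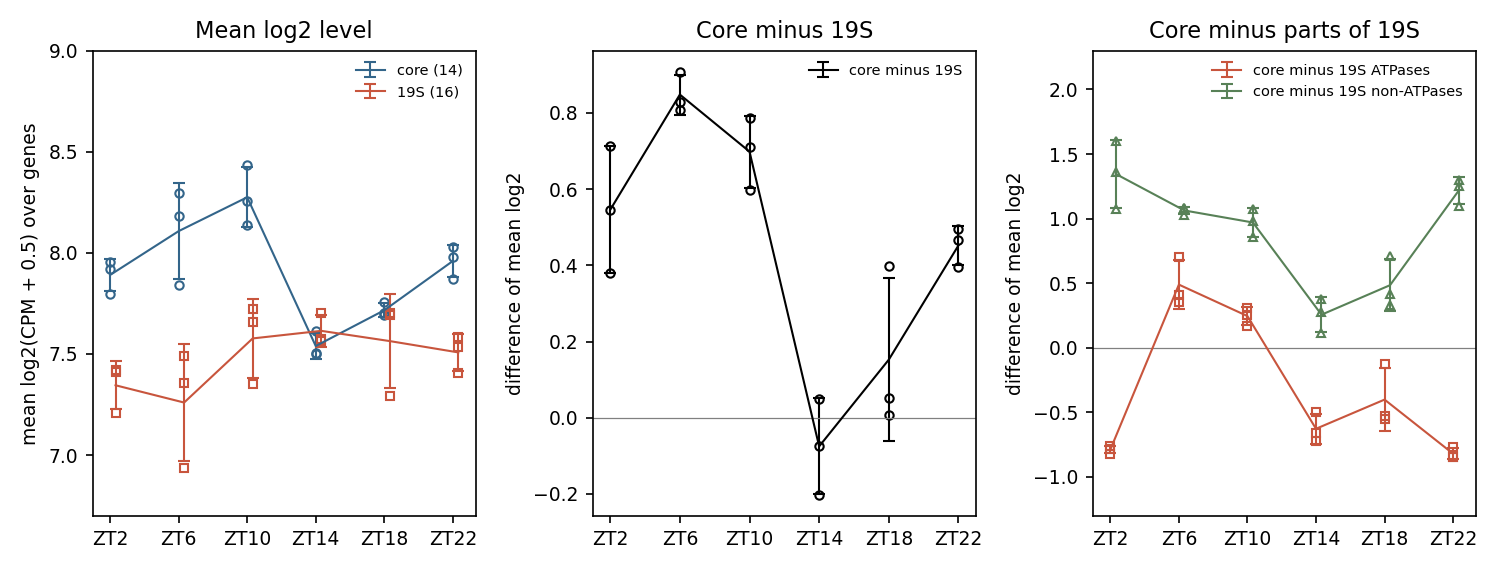
Left, mean log2(CPM + 0.5) over the 14 core genes (circles) and the 16 genes of the 19S particle (squares) in each pool; middle, their difference; right, core minus the 6 ATPases (squares) and core minus the 10 non-ATPases (triangles); lines join timepoint means and bars are SD, n = 3. Core minus 19S is highest at ZT6 (0.85) and lowest at ZT14 (-0.07).

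The share of all counted reads on the 47 genes was 0.868% to 0.925% at ZT2, 0.718% to 0.851% at ZT6, 0.819% to 0.976% at ZT10, 0.731% to 0.768% at ZT14, 0.741% to 0.806% at ZT18 and 0.886% to 0.975% at ZT22. It was thus lower in every ZT14 and ZT18 pool than in any pool of ZT2, ZT10 or ZT22.

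Chaperones assemble the particles and are not part of the finished complex. Of the 7 chaperone genes 5 changed with time (44.0% of all tested genes). The share was 68% among genes with 10 or more reads in each pool. *Psmd5* encodes a chaperone that holds ATPases of the base before they join the core. *Psmd5* read, in CPM for pools A, B and C, 16.5, 18.0 and 19.1 at ZT2, 68.1, 64.9 and 39.6 at ZT6 and 80.3, 68.4 and 58.4 at ZT10. It read 144, 101 and 109 at ZT14, 145, 124 and 112 at ZT18 and 18.99, 28.5 and 20.9 at ZT22. It was the only one of the 47 genes with all 6 pools of ZT14 and ZT18 above the other 12 (2.51% of all tested genes), and its log2 differences were 1.69 (SE 0.23, adjusted p = 2.25e-05) from ZT2 to ZT6, 0.78 (SE 0.22, adjusted p = 0.0226) from ZT10 to ZT14 and -2.48 (SE 0.23, adjusted p = 8.04e-07) from ZT18 to ZT22. *Psmg1* and *Psmg4*, chaperones of the alpha ring, rose from ZT2 to ZT6 with log2 differences of 1.61 (SE 0.30, adjusted p = 0.000422) and 1.94 (SE 0.22, adjusted p = 4.15e-06), and both fell from ZT10 to ZT14. *Psmg3*, the partner of *Psmg4*, did not pass (adjusted p = 0.308), with means from 40.3 CPM at ZT14 to 60.5 CPM at ZT22. *Psmd10* encodes a chaperone of the ATPases and came nearest to a call inside a cluster. Its pools read 45.0, 42.6 and 40.1 at ZT14 and 61.7, 72.0 and 88.7 at ZT18 (CPM), all higher at ZT18, with a log2 difference of 0.80 (SE 0.18, adjusted p = 0.0595). It was singled out after its values had been seen, and DESeq2 gave an adjusted p of 0.00179.

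Of the immunoproteasome genes, *Psmb8* and *Psmb9* were far below the constitutive genes they stand in for and *Psmb10* was not. *Psmb8*, which read 2.04, 0.344 and 1.00 at ZT2 and 3.60, 7.82 and 4.31 at ZT6 (CPM), rose from ZT2 to ZT6 (log2 difference 2.22, SE 0.65, adjusted p = 0.0130), on few reads, and 14.7% of its exon bases are shared with an overlapping gene. *Psmb9* and *Psmb10* did not pass the time test (adjusted p = 0.257 and 0.328). Per kilobase, *Psmb8* stood at 0.469% to 1.47% of *Psmb5* in the timepoint means. The highest of these, at ZT2, rests on pool A at 3.92%, where *Psmb5* was low, and without that pool it was 0.249%, the lowest. *Psmb9* stood at 0.314% to 0.692% of *Psmb6*. *Psmb10* stood at 56.5% to 112% of *Psmb7*, highest at ZT14. The lowest of these, at ZT2, rests on pool A at 30.2%, with pools B and C at 66.9% and 72.4%. The ZT22 mean was 65.6%. *Psme1* and *Psme2* encode the PA28 activator, a cap that binds the core without ATP. *Psme1* had means of 60.3 ± 9.81 CPM at ZT2, 108 ± 18.4 at ZT10 and 62.9 ± 9.36 at ZT14, and *Psme2* fell from 66.4 ± 7.10 to 31.3 ± 4.12 CPM between the latter 2 (log2 difference -1.08, SE 0.18, adjusted p = 0.000526). *Psme2* has a near-identical copy, *Psme2b*, so its counts are uncertain. *Psme4*, which encodes the activator PA200, did not pass (adjusted p = 0.0817), but did with DESeq2 (0.0167) and with no filter on low counts (0.0425), with ZT6 pools of 36.0, 21.1 and 67.3 CPM. *Psmc3ip*, no subunit, did not pass either (adjusted p = 0.865).

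By the JTK_CYCLE rank test for a 24 hr rhythm (p under 0.05, Bonferroni over 6 lags) together with the time test, 27 of the 47 genes were classed as cycling, where 29.9% of all tested genes were. They were 11 core genes, 10 genes of the 19S particle and 6 others. Of the 11 core genes, 4 had their best-fitting peak at ZT2, 5 at ZT6 and 2 at ZT10, and none in the night. Of the 10 genes of the 19S particle, 5 peaked at ZT22, 1 at ZT2, 2 at ZT10 and 2 at ZT14. With the JTK_CYCLE p adjusted over all genes as well, 16 of the 47 remained past the threshold (19.4% of all genes). Neither share of all genes was matched for read depth. A single cycle was sampled, so a rhythm and a difference between clusters cannot be told apart.

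Inside the clusters edgeR called no gene of the 47. The background was 0.0475% for ZT10 against ZT6, 0.570% for ZT18 against ZT14 and 0.0317% for ZT2 against ZT22. At an unadjusted p under 0.05 there were 6, 5 and 0 genes of the 47 (10.8%, 13.5% and 3.59% of all tested genes), and DESeq2 called 0, 1 and 0. The median log2 difference over the 47 genes was 0.24 for ZT10 against ZT6 (0.03 over all tested genes), 0.11 for ZT18 against ZT14 (-0.01 over all) and -0.06 for ZT2 against ZT22 (-0.01 over all).

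Genes outside the rule that serve the proteasome were taken from a list of ubiquitin receptors, deubiquitinases, regulators and ubiquitin genes. Of the 30 that could be tested, 23 changed with time (44.0% of all tested genes). Among genes with 10 or more reads in each pool, 23 of the list changed and 68% of all did. From ZT2 to ZT6, 12 rose and 8 fell (17.5% and 16.3% of all tested genes), and from ZT10 to ZT14, 3 rose and 8 fell (9.31% and 7.52%). *Txnl1*, *Adrm1* and *Stub1* had the smallest time-test p. *Adrm1* encodes a ubiquitin receptor of the 19S cap. Its pools read 5.94, 5.81 and 5.51 at ZT2 and 66.2, 49.5 and 30.7 at ZT6 in CPM (log2 difference 3.08, SE 0.29, adjusted p = 4.05e-07). *Txnl1*, a thioredoxin-like protein bound to the 19S cap, went from 37.4 ± 2.34 to 191 ± 13.9 CPM. *Stub1*, a ubiquitin ligase that works with chaperones, went from 11.3 ± 1.16 to 89.6 ± 26.8 CPM. These 3 were low at ZT2 and ZT22, as *Psmd8* was.

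The authors also deposited a normalized table, from which whole reads were recovered. For ZT6 and ZT10 it holds other counts than the count table: in those 6 columns 8.72% to 12.1% of the shared genes had identical reads, against 92.7% to 94.2% in the other 12. Over the 47 genes recovered reads at ZT6 and ZT10 were lower than counted ones by a median log2 ratio of -0.17 (all tested genes, -0.16), with *Psmb5* at -1.03, *Psmb1* at -0.68, *Psmb10* at -0.57 and *Psmg3* at -0.56. By the recovered reads 36 of the 47 genes changed with time, the same number as by the counts.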

How the data were processed

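RNA of 18 pools (54 lane samples, 3 lanes per pool) was amplified by SMARTer and sequenced by the authors, who aligned the reads with GSNAP to mm10, counted them per gene with HTSeq 0.5.4p1 and deposited raw read counts for 30031 genes. A second deposited table holds a normalized signal for 31077 genes, the counts divided by a DESeq2 size factor per column; 100% of its values were whole reads of 1 step (tolerance 1e-06). Counting is not stated to use strand, so overlapping genes cannot be told apart. Each replicate is a pool of 5 mice, and p-values measure the spread between pools.

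The 18941 genes counted (1 read or more) in over 6 columns were fitted with edgeR 4.0.16 in R 4.3.3 (TMM, quasi-likelihood F-tests, 1 fit to 18 columns, Benjamini–Hochberg). JTK_CYCLE was written in Python 3.11.15. RPKM used exon unions of GENCODE M21 (GRCm38). Scripts were tested on simulated data. Genes named are the 3 with the smallest and the 1 with the largest time-test p per class, all immunoproteasome genes, *Psmb5* to *Psmb7*, *Psmd14*, *Psmc3ip* and 3 pathway genes; others serve to describe a group and were chosen after their values were seen. The members, lists and tests were chosen with earlier results of these data known. Alternatives were DESeq2 1.42.0, its size factors, filters on low counts (10 in every pool, none), recovered reads, a replicate block and leaving out each pool.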

Additional observations from a re-analysis of the deposited data

Results flagged for a closer look

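2 genes of the proteasome have no row in the count table but carry reads in the authors' normalized table, which the comparisons above do not use. *Psmd1*, the largest non-ATPase subunit of the 19S base, had a mean of 221 CPM over the 18 replicates in the recovered reads. Its mean was 270.3 ± 47.9 CPM at ZT2 and 285 ± 20.5 CPM at ZT22 (SD, n = 3). By contrast it was 136 ± 8.33 CPM at ZT6 and 155 ± 12.6 at ZT10. In the night it was 247 ± 16.7 CPM (ZT14) and 233 ± 14.8 CPM (ZT18). In edgeR's fit to the recovered reads its log2 difference was -0.99 (SE 0.15, adjusted p = 5.81e-05) from ZT2 to ZT6 and 0.67 (SE 0.15, adjusted p = 0.00405) from ZT10 to ZT14. *Psme2b*, the copy of the PA28 gene *Psme2*, had a mean of 53.7 CPM and a log2 difference of -0.74 (SE 0.18, adjusted p = 0.00828) from ZT10 to ZT14.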

How the results depend on the processing

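The count of 36 genes changing with time stayed within 1.5 times under DESeq2, its size factors, either filter, recovered reads, the replicate block (36) and leaving out each pool (33 to 39; core 11 to 14, 19S 13 to 14, pathway list 22 to 24). The background moved more than the count. With the filter of 10 counts 37 genes and 68% of all changed, and with no filter 39 genes and 34% of all did. Leaving out timepoints, alternatives chosen after seeing the data, moved the count of 36 to 18 without ZT2 and ZT22. It moved to 22 without ZT14 and ZT18. Fewer pools enter these tests. The 19S count then moved from 13 to 2 and the core count from 13 to 2, in that order. Cycling genes numbered 16 of 27 with JTK_CYCLE p adjusted over genes, and 22 to 31 without single pools. Calls without single pools ranged from 20 to 25 for ZT6 against ZT2 (pathway list 18 to 23), 13 to 23 for ZT14 against ZT10 (8 to 13), 13 to 27 for ZT22 against ZT18 (8 to 13) and 0 to 1 for ZT18 against ZT14 (1 without ZT6 replicate B or C, 0 in the pathway list), and stayed at 0 inside the other clusters. The filter of 10 counts and DESeq2 each gave 1 call, *Psmd10*, for ZT18 against ZT14. The span of the core to 19S difference was 0.86 to 0.99 without single pools and 1.05 with summed counts. Recovered reads moved the median of all genes by -0.14 (log2) for ZT6 against ZT2. No called difference of a named gene reversed. The replicate letters share only a number: same-lettered pools had a median correlation of deviations of -0.004, 4 of 18 pools correlated best with their own letter, and the block gave 25, 18 and 23 calls at the 3 steps between clusters in place of 24, 18 and 21; with it *Psmc4* passed the time test (adjusted p = 0.0459), *Psmb5* did not (0.0502) and neither did *Psmd3* for ZT14 against ZT10 (log2 difference -0.81). With 3 pools a timepoint, small differences stay below what the tests resolve.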
